A study of Mus musculus with 5 samples.

Results

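The 650 kb of mouse chromosome 6 that begin at position 70600001 of the mm8 build hold a site that the study lists for Eif2ak3. The study lists it as bound by both Foxa1 and its paralog Foxa2. The same 650 kb hold the locus of Fabp1, where the study draws 3 sites. This interval was cut into 3250 bins of 200 bp, of 13153581 in the genome, by position alone, and the reads of 5 Foxa1 chromatin immunoprecipitation (ChIP-Seq) libraries were counted in each bin. The libraries came from snap-frozen livers (100 mg each) of wild-type CD1 outbred males, aged 2 to 3 months, with an antiserum to Foxa1. They form 1 group of 5 replicates with no treatment, no second genotype and no input library used here. The label of liver could not be checked against marker genes, since only precipitated DNA was read, and reads from hepatocytes and from other liver cells cannot be told apart.

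Foxa1 is a winged-helix transcription factor that binds the forkhead motif in liver enhancers and promoters, and its paralog Foxa2 recognizes much the same sequence. Eif2ak3 encodes PERK, a kinase of the endoplasmic reticulum membrane that senses unfolded proteins and slows translation by phosphorylating eIF2alpha, and its loss in humans causes an early-onset form of diabetes. Fabp1 encodes the liver fatty acid binding protein, an abundant carrier of fatty acids in the cytosol of hepatocytes. In the RefSeq table of GRCm38.p6 the genes typed as protein-coding run in the order Rpia, Eif2ak3, Tex37, Foxi3, Rpl34-ps1, Thnsl2, Fabp1 and Smyd1. Rpl34-ps1 is typed so although its symbol is that of a pseudogene. Foxi3, between the genes of interest, encodes a forkhead protein itself. In that build the start sites of Eif2ak3 and Fabp1 are preceded by the following 250 bases, printed 5′ to 3′ to show which of these promoters holds a forkhead word, set in capitals.
Eif2ak3, chr6:70844265-70844514 (GRCm38.p6, plus strand): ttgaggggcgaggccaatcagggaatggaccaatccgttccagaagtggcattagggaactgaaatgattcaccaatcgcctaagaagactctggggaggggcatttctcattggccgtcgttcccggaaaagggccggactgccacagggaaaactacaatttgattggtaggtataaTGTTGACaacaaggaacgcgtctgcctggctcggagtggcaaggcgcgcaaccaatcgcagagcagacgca
Fabp1, chr6:71199629-71199878 (GRCm38.p6, plus strand): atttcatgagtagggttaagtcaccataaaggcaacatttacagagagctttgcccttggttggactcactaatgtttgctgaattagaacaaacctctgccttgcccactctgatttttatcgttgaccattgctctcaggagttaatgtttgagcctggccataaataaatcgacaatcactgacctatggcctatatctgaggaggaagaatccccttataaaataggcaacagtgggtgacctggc
The search on both strands was for the word TATTGAC, for its variant with T at the fifth base, TATTTAC, and for the same pair with G at the second base, which are TGTTGAC and TGTTTAC. The Eif2ak3 promoter held TGTTGAC, 71 bases before the start site, and the Fabp1 promoter held none of the 4 words in this window. Of 32851 RefSeq promoters of this length, 8.77% held at least 1. The promoters of the other 5 neighbours with an entry, Rpia, Tex37, Foxi3, Thnsl2 and Smyd1, held none. These sequences are from another build than the reads, so no reads were counted in them, and the bases under the Foxa1 sites of mm8 were not read here.

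Copies of a read within a library were counted once. This left 1473182 to 4742472 distinct reads per replicate outside the mitochondrial chromosome and 18032047 in all. Replicate 5 kept 21.1% of its reads as distinct and replicate 4 kept 57.6%, against 85.0 to 93.1% in the others. The study's methods call the 5 libraries biological replicates, while the track labels of replicates 3 and 4 both hold the name WT4, which no other library has. At this depth the genome mean was 1.37 reads per bin, and no bin of the genome with fewer than 9 reads passed the test described next.

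Foxa1 reads rose above their background at 6 bins of the interval. These were 1 bin at the Eif2ak3 site, 1 bin 8.0 kb before it, 1 bin 78.2 kb before it, the upstream site of Fabp1 and a pair of bins 12.4 and 12 kb before that. Each bin was tested on the pooled distinct reads against whichever was higher, the genome mean or the local mean within 5 kb to each side with the central 1000 bp left out (one-sided exact Poisson test, Benjamini-Hochberg adjustment over all bins of the genome with a read, 5% false discovery rate). The 6 called bins are 0.245% of the 2447 bins of the interval with a read, where 0.0802% of 8583579 bins were called genome-wide, a rate that would give 1.96 bins here. In 229 consecutive blocks of 650 kb on chromosome 6, the median was 1 called bin and the highest 7, and 5 blocks, this interval among them, held at least 6. Without 1 replicate the interval held 3 to 7 called bins, with the 3 without replicate 4, and blocks were not counted again. Each of the 6 bins lost its call without at least 1 of the replicates, and bins outside the 6 are among these counts. The calls held 67 of the interval's 5493 distinct reads, or 1.22%. The Poisson test of the pool covers counting error only, not the spread between replicates. Over all pooled bins the variance over the mean was 1.46 in the interval and 2.28 on the autosomes, against 1 for a Poisson distribution. The adjusted p of a bin can thus be too low, and how much of this unevenness the local background takes up was not tested. The Eif2ak3 and Fabp1 sites had been called by the study from the same libraries, so an excess there is in part given by the choice of place. Without the 50 bp shift of the read ends, the upstream Fabp1 bin alone of the 6 kept its call. With copies kept 178 bins of the interval were called, and against the genome mean alone 19.

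**Figure D1:**
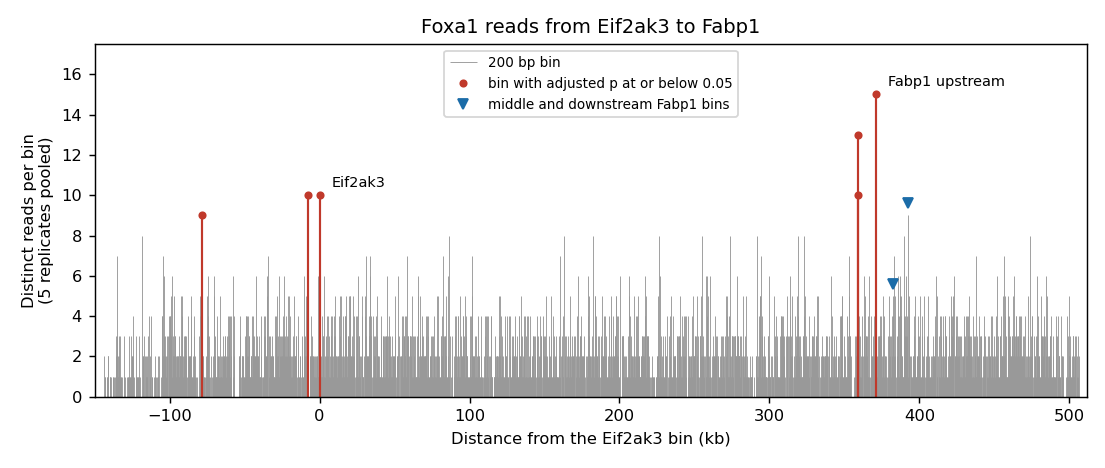
Distinct Foxa1 reads of the 5 replicates pooled in each of 3250 bins of 200 bp (y axis), against the distance from the Eif2ak3 bin in kb (x axis). Red lines are the 6 bins with adjusted p at or below 0.05, which stand at 9 to 15 reads. They lie at and up to 78.2 kb before the Eif2ak3 bin, and at and up to 12.4 kb before the upstream Fabp1 bin. Triangles mark the middle and downstream Fabp1 bins, at 5 and 9 reads, which did not pass.

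At Eif2ak3, the listed interval chr6:70743500-70743720 held 2, 5, 2, 0 and 2 distinct reads in replicates 1 to 5. Replicate 2 was the highest, and replicate 4, the deepest library, had none. Summed, the 11 reads were 5.86-fold over flanks of 5 kb on each side at 1 kb from the site (95% exact binomial interval 2.82 to 11.0-fold, counting error only), with an adjusted p of 1.23e-05 over the 33 intervals of the study's table of diabetes genes (one-sided exact binomial test). All 33 intervals passed this test (100%), and they had been chosen in part with these reads. By its fold, Eif2ak3 ranked 21 of 33, below the median of 6.51-fold in a range from 2.69 to 14.0-fold. Its 20 flank reads in replicate 4 predict 0.442 reads in the interval, and a count of 0 allows up to 3, or 6.79-fold. The pooled 5.86-fold, which includes this library, lies below that limit. Without replicate 4 the interval was 7.66-fold, which lies above it. Replicate 4 was without reads in 2 of the 33 intervals. Over all of them it held 168 of 470 reads, or 35.7%, and 26.3% of the distinct reads of the genome.

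The Eif2ak3 bin, chr6:70743601-70743800, held 1, 5, 2, 0 and 2 reads in replicates 1 to 5, which gave 10 reads and 5.97-fold over its background (exact Poisson test, adjusted p = 0.0200). Its neighbours on either side held 4 and 2. In the 200 bp before the bin centre 9 reads on the plus strand began, and 0 in the 200 bp after it, while the minus strand had 2 on each side. The plus-strand ends thus lay on 1 side of the centre and the minus-strand ends on both. The call of this bin was lost without replicate 2 (4.11-fold, exact Poisson adjusted p = 0.467), without replicate 3 (6.24-fold, 0.0562) and without replicate 5 (5.18-fold, 0.165), while the listed interval passed without any single replicate (highest adjusted p = 0.00364, exact binomial).

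Before the Eif2ak3 bin, 2 further bins were called. The bin chr6:70735601-70735800, 8.0 kb from the Eif2ak3 bin, held 1, 3, 4, 2 and 0 reads in replicates 1 to 5, 6.39-fold over its background (exact Poisson test, adjusted p = 0.0122). The bin chr6:70665401-70665600 held 2, 3, 1, 3 and 0 reads, 6.57-fold over its background (adjusted p = 0.0218, exact Poisson). In both of them replicate 5 had no reads and replicate 2 had 3. They stood at 10 and 9 reads, at or near the lowest count called in the genome. In the 200 bp before and after its centre, the first had 3 and 2 plus-strand ends, and 4 and 4 minus-strand ends. The second had 3 and 0 on the plus strand, and 3 and 4 on the minus strand. In both of them the minus-strand ends thus lay on both sides of the centre. The first was lost without replicate 2 (5.85-fold, exact Poisson adjusted p = 0.134) or replicate 3 (4.52-fold, 0.335). The second was lost without replicate 1 (6.18-fold, exact Poisson adjusted p = 0.0938), replicate 2 (5.52-fold, 0.214) or replicate 4 (5.94-fold, 0.241). With bins moved by 100 bp or ends shifted by 100 bp both were lost, the first at 4.60 and 4.54-fold (exact Poisson adjusted p = 0.250 and 0.359) and the second at 5.11-fold in each (0.179 and 0.250).

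At Fabp1 the study draws a site bound by both factors before the gene, a site of Foxa2 alone between that and the gene, and a site of Foxa1 alone just past the gene. The drawing names the gene but prints no chromosome, and chromosome 6 was taken from the RefSeq table and from earlier counts of these reads, so the p-values at these bars are not independent of the choice. Each bar was placed by eye on the drawn scale, and of the bins within 1000 bp of it the one with the most reads was used. The upstream bin, at the site bound by both factors, is chr6:71114801-71115000 and lies 371.2 kb from the Eif2ak3 bin. It held 1, 2, 1, 8 and 3 reads in replicates 1 to 5, and was the bin with the most reads of the whole interval. Its 15 reads (95% exact Poisson interval 8.40 to 24.7) were 8.96-fold over the background (adjusted p = 2.07e-06, exact Poisson). Every replicate had a read there, and replicate 4 had more than the other 4 together. The ends of these reads, moved 50 bp toward the fragment centre, spanned 110 bp, and the bins on either side held 1 and 2 reads. On the plus strand 7 reads began in the 200 bp before the bin centre and 1 after it, and on the minus strand 1 before and 8 after. The call was lost without replicate 4 (exact Poisson, adjusted p = 0.162, 6.08-fold) and when the bins were moved by 100 bp (0.0740), since 9 and 8 reads then fell on either side of a bin border.

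**Figure D2:**
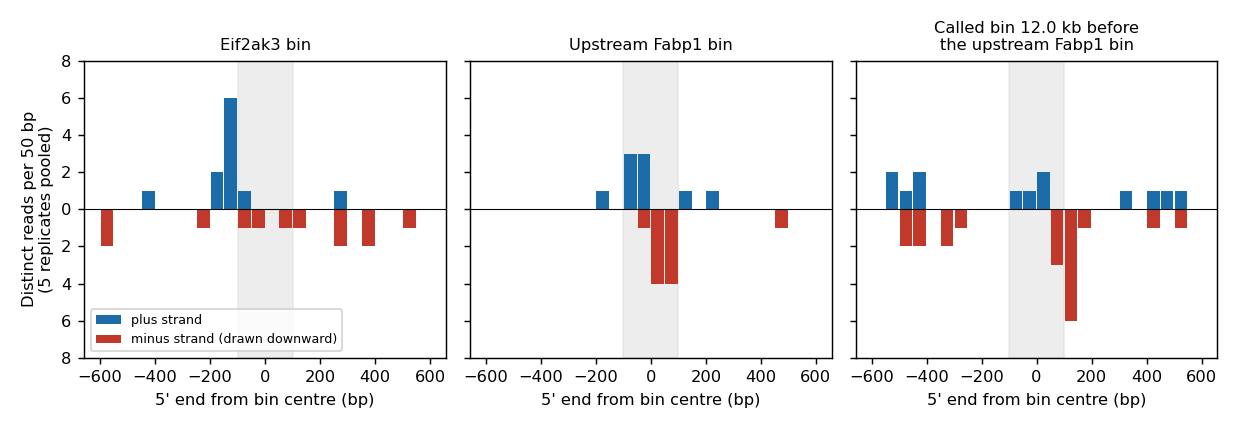
Distinct 5′ ends of Foxa1 reads per 50 bp, 5 replicates pooled (y axis, plus strand upward and minus strand downward), against the distance from the bin centre in bp (x axis), for the Eif2ak3 bin, the upstream Fabp1 bin and the called bin 12 kb before it. The shaded band is the bin. At the upstream Fabp1 bin plus-strand ends lie before the centre (7 of 8 within 200 bp) and minus-strand ends after it (8 of 9).

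Another pair of called bins lay farther from Fabp1 than the upstream bin. The bin chr6:71102801-71103000 held 0, 3, 2, 6 and 2 reads in replicates 1 to 5, 8.67-fold over its background (exact Poisson test, adjusted p = 3.49e-05), and was second in the interval to the upstream Fabp1 bin. The bin chr6:71102401-71102600 held 1, 2, 2, 1 and 4 reads, 6.97-fold over its background (adjusted p = 0.00643, exact Poisson). The replicate with the most reads differed between them, replicate 4 in the first and replicate 5 in the second. The bin between them held 0 reads. Around the first, 10 minus-strand ends lay in the 200 bp after the centre and 0 before it, while the plus strand had 2 on each side. Around the other, 5 plus-strand ends lay before the centre and 0 after it, while the minus strand had 4 before and 3 after, on both sides alike. The first fell to 5.65-fold without replicate 4 and was lost (exact Poisson, adjusted p = 0.216), and the second was lost at 4.77-fold without replicate 5 (0.312). The second was also lost with bins moved by 100 bp (4.13-fold, exact Poisson adjusted p = 0.336) and with ends shifted by 100 bp (5.11-fold, 0.186).

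The other bars at Fabp1 did not pass the test on the whole genome. At the site of Foxa1 alone, the downstream bin chr6:71135801-71136000 held 0, 2, 0, 2 and 5 reads in replicates 1 to 5, 3.98-fold over a background of 2.26 reads (exact Poisson test, adjusted p = 0.184). Replicate 5, the library with the fewest distinct reads, held most of the reads of this bin, and replicates 1 and 3 had none. Its file is not the smallest, with 7007014 reads against 3672991 in replicate 1. The bin passed without replicate 3 (exact Poisson, adjusted p = 0.0405), with bins moved by 100 bp (0.0330) and against the genome mean alone (0.0103). With copies kept it held 26 reads, 21 of them from replicate 5, and passed at 6.95-fold (exact Poisson, adjusted p = 2.44e-11). In that setting 178 bins of the interval were called. The study had called its sites by GLITR against input, which is another test than this one on distinct reads. At the site of Foxa2 alone, the middle bin chr6:71125801-71126000 held 0, 1, 1, 1 and 2 reads, 2.50-fold over its background (adjusted p = 0.755, exact Poisson). Its 95% exact binomial interval over the flanks ran from 0.765 to 5.79-fold, so a moderate Foxa1 excess there was neither shown nor excluded. The bin was picked as the highest near its bar, which can raise this interval. From the upstream to the downstream bin, 21.2 kb held 253 reads, with 22, 50, 58, 86 and 37 in replicates 1 to 5. The bins between the ends held 2.20 reads on average, against 1.69 over the whole interval, and 13 of the 106 bins of this stretch (12.3%) had at least 5 reads, against 175 of 3250 (5.38%) in the interval. The 13 include the bins of the 3 bars, which were picked for their reads. These averages pool the replicates, which differed. In the 50 kb segment that holds the stretch, read density relative to the rest of chromosome 6 was 0.867, 1.38, 1.42, 1.52 and 2.28 in replicates 1 to 5.

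The replicates were compared at the 8 bins named so far. Scaled to 1000000 distinct reads of each library (RPM), the upstream Fabp1 bin held 0.948 ± 0.848 RPM (SD, n = 5) and the Eif2ak3 bin 0.661 ± 0.580. The spread was thus nearly as large as the mean. The split of the reads between replicates was tested against their shares of all distinct reads (exact multinomial test, Benjamini-Hochberg over the 8 bins). This test takes distinct reads as independent and covers counting error only, not the spread between samples. The split was past counting error at the downstream Fabp1 bin (exact multinomial p = 0.000306, adjusted p = 0.00245), where replicate 5 held 5 reads and its depth predicts 0.735. Without replicate 5 this adjusted p was 0.764. At the upstream Fabp1 bin (exact multinomial p = 0.0342, adjusted p = 0.0911) and the Eif2ak3 bin (p = 0.0565, adjusted p = 0.113) the test did not pass after adjustment, nor at the other 5 bins, with adjusted p of 0.0911 to 0.797. Copies were most numerous in replicate 5. At the downstream Fabp1 bin the files held 26 reads before copies were removed, 21 of them from replicate 5, and at the upstream bin 33, with 11 from replicate 4 and 17 from replicate 5, where the distinct reads were 8 and 3. The part of copies in the result was not tested.

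**Figure D3:**
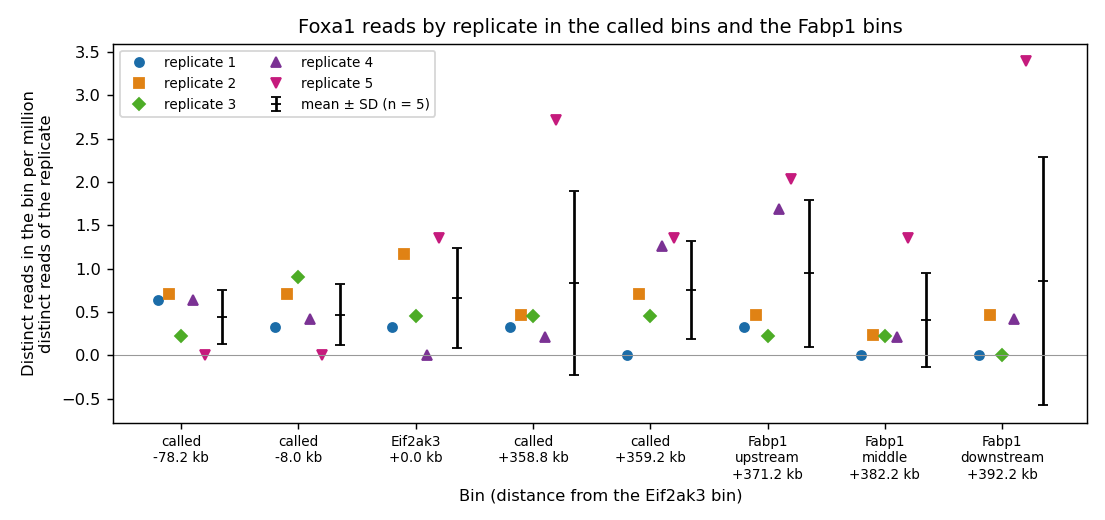
Distinct Foxa1 reads in the 6 called bins and the middle and downstream Fabp1 bins, scaled to 1000000 distinct reads of each replicate (RPM, y axis), with the distance of each bin from the Eif2ak3 bin in kb (x axis). Symbols are the 5 replicates and black bars the mean ± SD. Replicate 5 stands at 3.39 in the downstream Fabp1 bin, where the other replicates lie between 0 and 0.470.

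To ask whether Foxa1 occupied the Eif2ak3 and Fabp1 sites to a different extent, their folds over flanks were compared in bins of the same width. The Fabp1 bin had been picked as the highest within 1000 bp of its bar and the Eif2ak3 bin as the highest in a listed 221 bp, so the bins were not chosen alike, and the wider search can raise the Fabp1 fold more. Pooled, the Eif2ak3 bin was 5.95-fold (95% exact interval 2.75 to 11.5-fold) and the upstream Fabp1 bin 8.33-fold (4.48 to 14.5-fold) over the flanks. By replicate, with 0.5 reads added to each count, the log2 fold was 2.59 ± 1.53 at Eif2ak3 and 3.04 ± 0.997 at Fabp1 (SD, n = 5). The log2 difference, Eif2ak3 less Fabp1, was -0.96, 1.2, 1.03, -3.72 and 0.21 in replicates 1 to 5. Eif2ak3 was higher in 3 of 5 replicates, and the value of replicate 4 rests on the 0.5 reads added to its 0 reads at Eif2ak3. The mean difference was -0.45 ± 2.02 (SD, n = 5, two-sided exact sign-flip permutation test, p = 0.875). Fisher's exact test on the pooled site and flank reads gave a two-sided p of 0.523. Without replicate 4 the mean difference was 0.37 (exact permutation p = 0.375), so its direction rested on that library. With 1 read added in place of 0.5, it was -0.31 (exact permutation p = 0.8125).

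The read density of the whole interval was compared with that of the rest of chromosome 6. The ratio was 0.985, 1.18, 1.26, 1.17 and 1.26 in replicates 1 to 5. Replicates 2 to 5 lay above 1 and replicate 1 just below it. The mean was 1.17 ± 0.113 (SD, n = 5), and the log2 ratio of 0.22 ± 0.15 did not pass a two-sided exact sign-flip permutation test (p = 0.125), where 5 replicates allow no p below 0.0625. Over bins with a pooled read alone it was 0.080 (exact permutation p = 0.250), and against all autosomes 0.25 (exact permutation p = 0.0625). By segments of 50 kb, the first, from 70600001 to 70650000, had the lowest mean ratio, 0.785 ± 0.171 (SD, n = 5). The segment with the upstream and downstream Fabp1 bins, from 71100001 to 71150000, had the highest, 1.49 ± 0.509. In the latter the replicates ranged from 0.867 in replicate 1 to 2.28 in replicate 5. Without replicate 5 its mean was 1.30, and the segments from 70750001 and from 70800001 were each at 1.31, so its rank rested on this library.

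**Figure D4:**
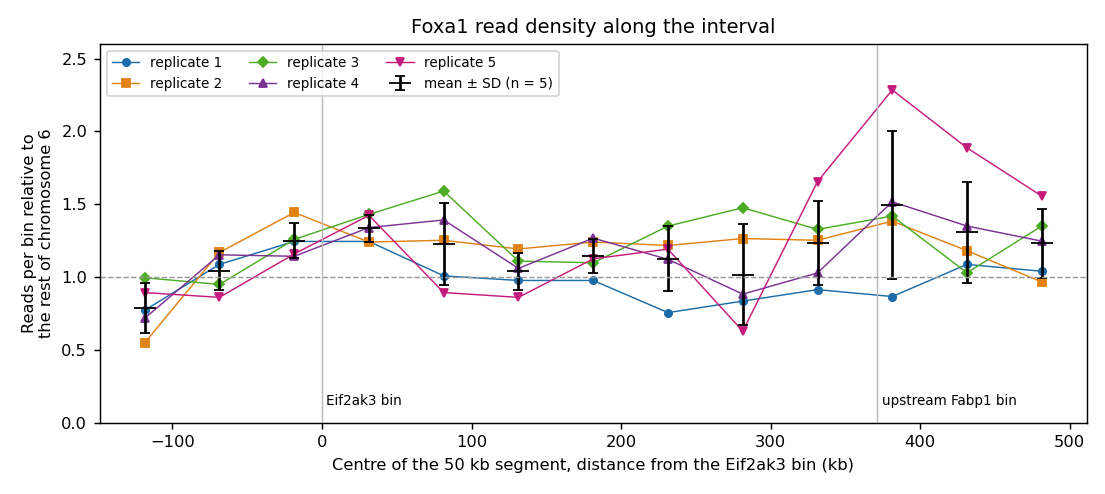
Distinct Foxa1 reads per bin in 13 segments of 50 kb, relative to the rest of chromosome 6 (y axis, 1 is the dashed line), against the distance of the segment centre from the Eif2ak3 bin in kb (x axis). Coloured symbols are the 5 replicates and black bars the mean ± SD. The segment with the Fabp1 bins has the highest mean, 1.49, and the widest spread, from 0.867 to 2.28, and without replicate 5 its mean is 1.30.

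The background around each site was then set against the rest of the interval, with the called bins and 1000 bp around the site left out. Within 15 kb of the upstream Fabp1 bin the background was 1.91 reads per bin, against 1.67 elsewhere in the interval. This window kept the middle Fabp1 bin, 11 kb away and not called, and the uncalled bins beside the called pair. The log2 ratio by replicate was 0.024, 0.21, 0.013, 0.26 and 0.67. All replicates lay above 0, by little in replicates 1 and 3, and the mean was 0.23 ± 0.27 (SD, n = 5, two-sided exact permutation p = 0.0625, the smallest that 5 replicates allow). Without replicate 5 this mean was 0.13 (exact permutation p = 0.125, the smallest that 4 allow) and with copies kept 0.20 (p = 0.1875, exact permutation). Among bins with a pooled read alone, it was 0.13 ± 0.27, above 0 in 3 of 5 replicates (exact permutation p = 0.375). Empty bins were fewer near Fabp1, 19.6% against 24.9%, and the part of sequence without unique alignments was not tested. Around Eif2ak3 the background was 1.67 reads per bin both near and far, a log2 ratio of -0.028 ± 0.19 (n = 5, exact permutation p = 0.750). Among bins with a pooled read it was -0.10 ± 0.19 (exact permutation p = 0.375), and empty bins were 20.9% near and 24.98% far.

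Reads were spread over the bins of the interval more unevenly than a single rate gives. Of the 3250 bins, 803 were empty, or 24.7%, where a Poisson distribution with the same mean has 18.4%. On the autosomes 32.9% of bins were empty, where their mean gives 24.1%. At the other end, 19 bins held 8 or more reads, where the Poisson distribution has 1.21. The variance over the mean was 1.46 in the pooled reads, below the 2.28 of all autosomes, and 1.27 ± 0.209 (SD, n = 5) by replicate. Replicates 4 and 5 were highest, at 1.41 and 1.55, and the others lay between 1.05 and 1.19. The longest run of empty bins was 2800 bp, from 70686801 to 70689600, and the next was 2200 bp, from 71098001 to 71100200. Only reads with a unique best alignment are in the files, and whether these stretches can be aligned uniquely was not tested.

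**Figure D5:**
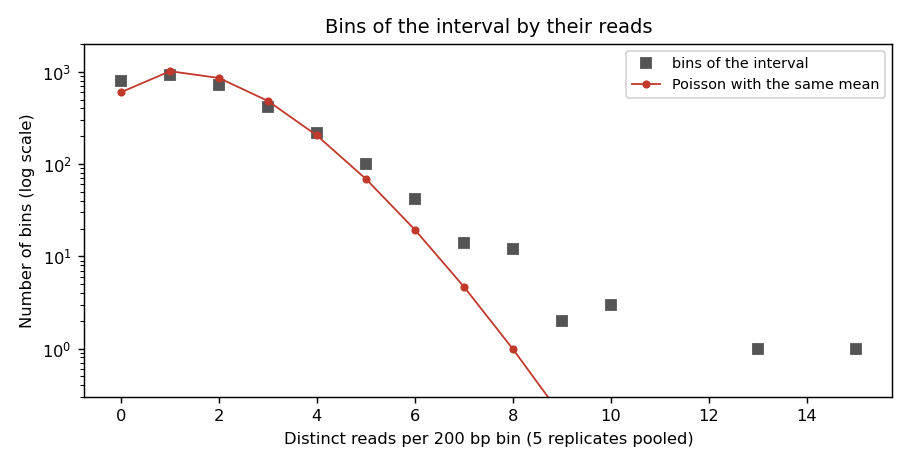
Number of bins of the interval (y axis, log scale) by their distinct Foxa1 reads, 5 replicates pooled (x axis), as squares, with the number a Poisson distribution with the same mean gives as a red line. The squares lie above the line at 0 reads, 803 against 600 bins, and from 4 reads on. Bins with 5 or more reads number 175 against 94.2, and those with 8 or more 19 against 1.21.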

How the data were processed

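The authors deposited the aligned reads of 5 Foxa1 ChIP-Seq libraries, 1 file per replicate with the position and strand of each 36 nt read, and no count, score or normalization. Per the paper and the labels, fragments of about 200 bp were amplified by 18 cycles of PCR and reads with a unique best ELAND alignment to mm8 were retained. Here, reads with the same strand and 5′ end in a replicate were counted once, 5′ ends were shifted by 50 bp, and counts per 200 bp bin were pooled or kept by replicate. The paper compared with input by GLITR, which these files do not allow, so the surrounding 5 kb stood in. Tests are named beside each result. Intervals are 95% exact intervals and cover counting error only. The deposited files hold 3672991 to 8239957 reads per replicate, of which distinct reads alone entered the main tests. Copies entered only the alternative with copies kept.

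Bins were named by rule (the Eif2ak3 interval, the 3 bars at Fabp1, every called bin, the longest empty run), with members, rule and lists chosen with earlier results of these data known. The bars were placed by eye. Python 3.11.15, NumPy 2.4.6, SciPy 1.17.1, pandas 2.3.3 and Matplotlib 3.10.9 were used. The Poisson, binomial and multinomial tests were tried on simulated counts. For the bins these were Poisson counts around the local mean, so spread beyond counting error was not covered. The sign-flip test was tried on a set of equal values only, and Fisher's test was not tried. Alternatives covered copies, shift, bin phase, background, low counts, threshold, support, references, added reads and each replicate left out in turn. Leaving out replicates in the split test and replicate 5 in the segments was added after seeing the data.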

Additional observations from a re-analysis of the deposited data

Results flagged for a closer look

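In 3 of 27 quantities checked by replicate, 1 replicate lay so far from the other 4 that its gap, as a share of the whole range, passed Dixon's critical value of 0.71 for 5 samples. Chance passes it in about 1 of 20 groups of 5 normal values with equal spread. The bins here hold small counts scaled by unequal depths, and the rate of chance for them was not tested. In each of the 3, the replicate was replicate 5 and the quantity was the reads in RPM (scaled to 1000000 distinct reads of the library) in a bin of the Fabp1 side. At the called bin that starts at 71102401, replicate 5 stood at 2.72 RPM and the others at 0.211 to 0.470, a gap of 0.897 of the range. At the middle Fabp1 bin it stood at 1.36 and the others at 0 to 0.235, a gap of 0.827. At the downstream Fabp1 bin it stood at 3.39 and the others at 0 to 0.470, a gap of 0.862. These values rest on 4, 2 and 5 distinct reads of replicate 5, which the file holds as 24, 5 and 21 reads. Replicate 5 has the fewest distinct reads, so that 1 read there counts for more RPM than in any other replicate.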

How the results depend on the processing

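The Eif2ak3 interval of the table passed the test under all alternatives run, from 4.45 to 7.66-fold. The 6 called bins became 178 with copies kept, 1 without the shift, 3 with a shift of 100 bp, 4 with bins moved by 100 bp, 19 against the genome mean alone, 3 at a false discovery rate of 1%, and 3 to 7 without 1 replicate each, with the 3 without replicate 4. With bins moved by 100 bp, the upstream Fabp1 bin was 5.17-fold and no longer passed. The downstream bin then was 4.91-fold and passed, as it did at 6.95-fold with copies kept and at 6.57-fold against the genome mean. Without 1 replicate each, the upstream bin was 6.08 to 11.3-fold, the downstream bin 2.91 to 5.75-fold, the difference of Eif2ak3 and Fabp1 -0.86 to 0.37, the background ratio around Eif2ak3 -0.081 to 0.042 on the log2 scale, and the adjusted p of the split at the downstream bin 0.000538 to 0.764. With copies kept, the background ratio around Eif2ak3 was 0.028, on the other side of 0. Only without replicate 4 did the difference of Eif2ak3 and Fabp1 change sign, and only without replicate 5 did the split not pass. Apart from moved bins, which cut the upstream reads apart, the cause of these changes was not tested. With bins moved or a shift of 100 bp, the Eif2ak3 bin and the bin at 71102801 still passed, while those at 70665401, 70735601 and 71102401 did not. No paired analysis of groups was possible because there was 1 group, and comparisons of places were made within each replicate. At this depth and with the local background, no bin under 9 reads was called.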

Other observations

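Of the bins of the interval that did not pass, the nearest to the threshold held 8 reads each. The bin chr6:70625001-70625200 held 1, 1, 5, 1 and 0 reads in replicates 1 to 5 and the bin chr6:70970001-70970200 held 2, 0, 3, 1 and 2, each with an adjusted p of 0.0751 (exact Poisson test). In the former most reads came from replicate 3, and in the latter replicate 2 alone had none. The bin chr6:71035401-71035600 held 0, 1, 3, 4 and 0 reads (adjusted p = 0.0795, exact Poisson).

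A bin singled out after its values were seen lay 18.0 kb before the upstream Fabp1 bin, at chr6:71096801-71097000. All 7 of its distinct reads came from replicate 5, where the file holds them as 21 reads, and the other 4 replicates had 0. The reads lay on both strands, 5 on plus and 2 on minus, and their shifted ends spanned 140 bp. Its adjusted p was 0.180 (exact Poisson test). The split was not tested, since the bin was chosen for it.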
